A study of Mus musculus with 20 samples.

Results

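A set of 10 genes that reactive astrocytes are known to raise was followed across the white matter of Zdhhc9 knockout and wild-type mice: Gfap, Vim, Serpina3n, Cd44, Lcn2, Osmr, Steap4, Timp1, Hspb1 and S100a6. They were chosen by symbol, as 10 of the 46517 genes in the deposited table, and all 10 were found there by their gene identifiers. The choice was made with earlier results of these data known. Astrocytes are the glial cells that buffer and feed the tissue around axons. After injury or inflammation they enlarge, assemble more of the intermediate filaments GFAP and vimentin, and switch on secreted protease inhibitors, cytokine receptors, chaperones and acute-phase proteins, partly through the IL-6 family of cytokines and STAT3. None of these genes belongs to astrocytes alone, since fibroblasts, endothelial cells, macrophages and neutrophils also use several of them.

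RNA was sequenced in 20 libraries from mice labelled Zdhhc9 knockout or wild type, with no other allele or treatment named in the labels. Zdhhc9, an X-linked gene, codes for a palmitoyltransferase, and the series title ties it to oligodendrocyte maturation and myelin. The corpus callosum, the commissure between the hemispheres, gave 6 knockout and 5 wild-type libraries and was cut from frozen coronal sections. The optic nerve, which carries the axons of retinal ganglion cells, contributed 5 libraries from knockout and 4 from wild-type mice. The labels used here do not give the age or sex of the mice, the knockout allele or the cells it acts in, and they do not say whether libraries of a group came from separate animals, so p-values measure the spread between these libraries. Levels are given as CPM, the estimated counts of a gene scaled to the same total in every library. Folds come from an edgeR quasi-likelihood fit with Benjamini-Hochberg adjustment over all genes tested, and a gene was called at an adjusted p under 0.05, with a log2 fold change of at least 1 in size also required between the tracts.

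Library totals ran from 15401130 to 26095622 estimated counts. Zdhhc9 averaged 47.9 ± 5.34 CPM (SD, n = 6) in knockout and 183 ± 18.2 CPM (SD, n = 5) in wild-type callosum, and 42.5 ± 7.29 CPM (SD, n = 5) against 136 ± 15.5 CPM (SD, n = 4) in nerve, so its transcript fell in both tracts but was not absent. The sample labels call the mice knockout, and the design text of the series a knockdown. The deposited sample numbers come in formats that the labels do not explain: in callosum 2 knockout and 2 wild-type libraries carry 2-digit numbers and the others 6- or 7-digit numbers. In nerve the 2 numbers that hold a letter are both knockout, so for those libraries format and genotype cannot be told apart. With only 6-digit numbers 4 members changed sign in the nerve comparison, none of them called. The astrocyte label was checked with 13 markers of resting astrocytes, such as Aqp4, Slc1a2 and Aldh1l1. Their summed level ran from 5990 to 8480 CPM over all libraries, and none was at 0 in any group. Single markers moved in opposite directions between the tracts. In wild type Slc1a2 averaged 1570 CPM in callosum and 301 CPM in nerve, and Aqp4 245 and 548 CPM. In bulk tissue, fewer cells of a type and less RNA per cell cannot be told apart.

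The promoters of 3 members are shown: Gfap as the defining gene of the set, Steap4 for a match to the letters that STAT factors are known to bind, and Hspb1 for matches to the heat shock element. Each is the 250 bases before the RefSeq start on GRCm38.p6, 5′ to 3′ along the gene, and RefSeq gave a window for all 10 members. Gfap lies at chr11:102897201-102897450 on the minus strand, Steap4 at chr5:7960222-7960471 on the plus strand and Hspb1 at chr5:135887669-135887918 on the plus strand. Capitals mark the STAT letters TTCNNNGAA, the heat shock letters GAANNTTC and the TATA box TATAAA. The AP-1 letters TGANTCA were also searched, and each search covered both strands.
Gfap: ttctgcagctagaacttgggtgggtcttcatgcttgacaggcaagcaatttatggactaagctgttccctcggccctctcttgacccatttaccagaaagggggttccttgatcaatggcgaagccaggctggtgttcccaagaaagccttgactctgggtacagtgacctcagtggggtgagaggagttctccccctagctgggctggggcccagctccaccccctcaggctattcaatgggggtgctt
Steap4: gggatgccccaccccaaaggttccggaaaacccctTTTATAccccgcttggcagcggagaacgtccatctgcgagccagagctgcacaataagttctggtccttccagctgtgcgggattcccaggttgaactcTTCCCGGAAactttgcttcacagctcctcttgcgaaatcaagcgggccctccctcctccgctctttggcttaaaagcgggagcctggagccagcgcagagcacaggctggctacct
Hspb1: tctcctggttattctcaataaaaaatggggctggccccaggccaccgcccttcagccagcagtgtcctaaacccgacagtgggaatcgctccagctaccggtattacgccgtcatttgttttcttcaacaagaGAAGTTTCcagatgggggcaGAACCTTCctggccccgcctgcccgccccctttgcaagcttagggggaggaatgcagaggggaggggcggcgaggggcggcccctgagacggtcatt
Steap4 holds the STAT letters from 116 to 108 bases before its start and a reverse TATA match from 215 to 210. The last 15 bases of the Steap4 window lie in an exon of the mm10 annotation. Other windows overlap annotated exons of their own gene too: those of Vim and Osmr with all 250 bases, Lcn2 with 197 and S100a6 with 12. Hspb1 holds the heat shock letters at 117 to 110 and at 97 to 90 bases before its start. Of the other members, S100a6 holds the heat shock letters at 18 to 11 bases and Vim a TATA box at 32 to 27 bases before the start. In the 250-base windows of all 32851 promoters in the RefSeq table, 7.02% hold the STAT letters, 6.69% the heat shock letters, 12.4% the TATA box and 6.75% the AP-1 letters. No member's window holds the AP-1 letters, and that of Gfap holds none of the 4 motifs.

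All 10 genes were far higher in optic nerve than in corpus callosum, in both genotypes. In wild type the nerve exceeded the callosum by 3.87-fold for Osmr, the smallest difference, to 30.6-fold for Timp1, the largest, with a median log2 difference of 3.34 against -0.03 over the 16440 genes tested. In knockout the differences ran from 5.79-fold for Osmr to 37.8-fold for Timp1, with a median log2 difference of 4.03 against 0. Timp1, Lcn2 and Steap4 were nearly absent from callosum and passed the filter on low counts only through the nerve, so they had to differ; the other 7 ran from 3.87-fold to 16.3-fold in wild type, with a median log2 difference of 3.27 there and 3.62 in knockout. All 10 were called higher in each genotype, where 13% of genes tested in wild type and 14.9% in knockout were called higher. Members and gene lists were not chosen blind to these data, so a count set beside these shares is a description only. The same shares apply to the gene lists below. Those lists can also hold genes that passed the filter only through the nerve and so had to differ. Within callosum 28 genes of the wider reactive astrocyte list were tested, against 31 between the tracts. The counts were 14 against 16 for IL-6 family signalling, 11 against 12 for Timp genes and metalloproteinases, and 9 against 10 for heat shock proteins. For each of the 10, every nerve library lay above every callosum library of its genotype, a separation found for 22.1% of genes tested in wild type and 23.2% in knockout. The 2 tract comparisons share no library, but the groups in each differ in dissection as well as in tissue.

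**Figure D1:**
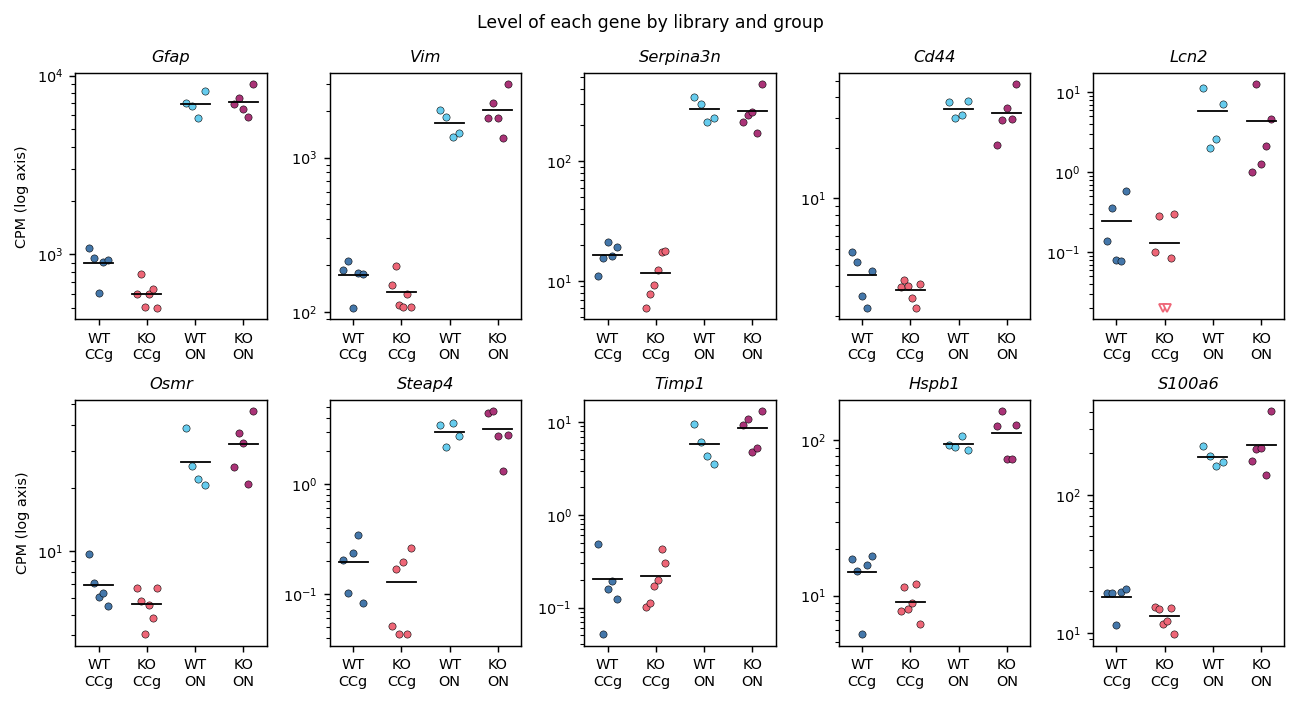
Levels of the 10 genes in each library (CPM, log scale), by tract and genotype, with group means as bars. Open triangles mark the 2 knockout callosum libraries in which Lcn2 had 0 counts, drawn at a fixed low position since 0 has no place on a log axis. For every gene the nerve libraries sit above the callosum libraries.

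The filament genes came first in level. Gfap, the intermediate filament protein that defines astrocytes (chr11:102887336-102900912 on mm10, minus strand), stood at 608, 902, 928, 955 and 1083 CPM in the wild-type callosum libraries and at 5825, 6720, 7059 and 8167 CPM in the wild-type nerve libraries. In knockout it ran from 500 through a median of 601 to 772 CPM in callosum, and stood at 5888, 6494, 6975, 7474 and 8926 CPM in nerve. In nerve the genotypes overlap, whereas 4 of 5 wild-type callosum libraries exceed the highest knockout library. The nerve exceeded the callosum in Gfap by 2.96 ± 0.17 in wild type (log2, SE, adjusted p = 2.38e-11) and by 3.57 ± 0.16 in knockout (adjusted p = 3.71e-13).

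Vim, the filament protein vimentin, is shared by reactive astrocytes, endothelium and fibroblasts (chr2:13573927-13582826, plus strand). It stood at 106, 176, 178, 188 and 214 CPM in wild-type callosum and at 1366, 1442, 1819 and 2019 CPM in wild-type nerve. Knockout callosum ran from 107 through 121 to 198 CPM, and knockout nerve held 1332, 1800, 1811, 2268 and 2974 CPM. The tracts do not overlap and the genotypes do, in both tracts. Vim differed between tracts by 3.27 ± 0.24 in wild type (log2, SE, edgeR adjusted p = 1.04e-09) and by 3.93 ± 0.23 in knockout (adjusted p = 1.36e-11). Of 6 other intermediate filament genes, 3 were higher in nerve and 1 lower in each genotype: Lmna, a nuclear lamin, by 1.59, Des, the muscle filament desmin, by 2.26, and Nes, the progenitor filament nestin, by 1.37 (log2, wild type). Their median log2 difference was 0.98 in wild type and 1.41 in knockout.

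Both secreted protease inhibitors were higher in nerve. Serpina3n, a serine protease inhibitor of the acute-phase type (chr12:104406729-104414329, plus strand), stood at 11, 15.5, 16.2, 19.2 and 21.1 CPM in wild-type callosum and at 211, 228, 303 and 343 CPM in wild-type nerve. Knockout callosum ran from 5.93 through 10.8 to 17.7 CPM, and knockout nerve held 171, 214, 243, 258 and 438 CPM. The nerve was 16.3-fold higher in wild type (adjusted p = 2.8e-09) and 22.5-fold higher in knockout (adjusted p = 1.09e-10). Serpina3n sits in a cluster of related genes, between which reads can be split. Its estimated counts lay close to whole numbers, such as 115.984 in KO_CCg_27 and 5340.99 in KO_ON_48038A7. Counts of Hspb1 held larger fractions, such as 155.477 in KO_CCg_27. How far reads were split between genes was not tested. Of the 10 other cluster genes in the table, Serpina3g alone had enough counts to be tested, at a group mean of 0.062 to 1.19 CPM.

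Timp1, an inhibitor of matrix metalloproteinases (chrX:20870166-20874735, plus strand), lies inside Syn1 on the opposite strand without sharing exonic bases. It had 1 to 10 counts in each callosum library, that is 0.0513, 0.124, 0.158, 0.193 and 0.479 CPM in wild type and 0.102 through 0.185 to 0.427 CPM in knockout. In nerve it stood at 3.51, 4.35, 6.06 and 9.63 CPM in wild type and at 4.73, 5.33, 9.23, 10.9 and 13.3 CPM in knockout. The fitted differences were 4.94 ± 0.48 in wild type (log2, SE, adjusted p = 4.8e-08) and 5.24 ± 0.43 in knockout (adjusted p = 2.12e-09). For Timp1, Lcn2 and Steap4 the size of the fold rests on a few callosum counts and the prior count of the fit. Of 12 further genes tested for Timp inhibitors, metalloproteinases and the inhibitor Reck, 5 were higher in nerve and 1 lower in each genotype. Among them were Timp3, another inhibitor, at 2.64 (log2, wild type), Mmp2, a gelatinase, at 2.51 and Mmp14, its membrane-bound activator, at 2.20.

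The receptors were called higher at lower levels. Osmr, the receptor subunit for oncostatin M (chr15:6813577-6874969, minus strand), ran from 5.50 to 9.66 CPM in wild-type and 4.02 to 6.72 CPM in knockout callosum, and from 20.7 to 38.5 CPM in wild-type and 21.0 to 46.6 CPM in knockout nerve. Its tract difference was 1.95 ± 0.23 in wild type (log2, SE, adjusted p = 6.95e-07) and 2.53 ± 0.21 in knockout (adjusted p = 3.58e-09). Of 16 other IL-6 family signalling genes tested, 9 were higher and 0 lower in wild-type nerve, with a median of 1.20, and 10 were higher and 0 lower in knockout nerve, with a median of 1.38. Il6st, the gp130 subunit that pairs with OSMR, differed by 1.52, the feedback inhibitor Socs3 by 2.47 and the ligand Cntf by 3.06 (log2, wild type). In knockout the transcription factor Stat3 differed by 1.39 and Bcl3, an IκB family regulator, by 5.30.

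Cd44, the receptor for hyaluronan (chr2:102811141-102901665, minus strand), ran from 2.24 to 4.79 CPM in wild-type and 2.22 to 3.28 CPM in knockout callosum. Nerve libraries ran from 30.3 to 38.0 CPM in wild type and from 20.9 to 47.8 CPM in knockout. The tracts were separated by 3.30 ± 0.22 in wild type (log2, SE, adjusted p = 2.4e-10) and by 3.51 ± 0.20 in knockout (adjusted p = 1.57e-11). Genes for CD44 ligands, for hyaluronan synthesis and breakdown and for the linkers Ezr, Msn and Rdx, which tie CD44 to the cytoskeleton, did not move in 1 direction: of 15 tested, 4 were higher and 4 lower in nerve in each genotype, with a median of -0.27 in wild type and -0.15 in knockout. Spp1, the ligand osteopontin, was higher by 5.13 and the linker Msn by 1.80, while Ncan, the hyaluronan-binding proteoglycan neurocan, was lower at -2.83 (log2, wild type).

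Lcn2 and Steap4 are linked to iron. Lcn2, a secreted lipocalin that binds iron-carrying siderophores and is also stored in neutrophil granules (chr2:32384633-32388252, minus strand), had 0 to 14 counts per callosum library, with 0 counts in 2 knockout libraries. In nerve it stood at 2.01, 2.62, 7.16 and 11.3 CPM in wild type and at 1, 1.28, 2.14, 4.63 and 12.6 CPM in knockout. In nerve Lcn2 varied more between libraries than the other members, with a coefficient of variation of 112% in knockout nerve and 75.3% in wild-type nerve. The fitted tract difference was 4.52 ± 0.85 in wild type (log2, SE, adjusted p = 0.000164) and 5.07 ± 0.84 in knockout (adjusted p = 2.7e-05).

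Neutrophil markers moved with the tract too. The summed level of 6 markers ran from 0.043 to 1.13 CPM in callosum, where Ly6g was at 0 in every library, and from 5.37 to 42.3 CPM in nerve. Library KO_ON_48118A4, a knockout nerve library and the highest of its group for Lcn2, held 28.9 CPM of neutrophil markers, also the highest of its group. Library WT_ON_700858, a wild-type nerve library and the highest of its group for Lcn2, held 17.2 CPM, against 42.3 CPM in WT_ON_719857. The part of neutrophil RNA in the Lcn2 difference was not tested.

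Steap4, a metalloreductase of iron and copper (chr5:7960457-7982213, plus strand), had 1 to 9 counts per callosum library and ran from 2.17 to 3.60 CPM in wild-type and 1.31 to 4.66 CPM in knockout nerve. Its fitted difference was 3.88 ± 0.47 in wild type (log2, SE, adjusted p = 7.95e-07) and 4.58 ± 0.45 in knockout (adjusted p = 2.63e-08). Of 11 genes tested from a list of other Steap genes, iron-handling genes and Lcn2 receptors, 2 were higher and 1 lower in wild-type nerve. In knockout nerve 3 were higher and 1 lower, and the medians were 0.02 in wild type and -0.03 in knockout. The share called higher over all genes tested was 13% in wild type and 14.9% in knockout. Steap3 was higher by 1.99 and Trf, transferrin, by 1.09, while Steap1 was lower at -2.97 (log2, wild type).

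The remaining members are a chaperone and a calcium-binding protein. Hspb1, a small heat shock protein that guards filaments and other proteins (chr5:135887919-135889563, plus strand), stood at 5.61, 14.3, 15.6, 17.2 and 17.9 CPM in wild-type callosum and at 87.4, 90.6, 93.7 and 108 CPM in wild-type nerve. Knockout callosum ran from 6.50 through 8.57 to 11.8 CPM, and knockout nerve held 76.3, 76.4, 124, 127 and 156 CPM. The knockout nerve values fall into 2 low and 3 high libraries around the narrow wild-type range. The tract difference was 2.75 ± 0.27 in wild type (log2, SE, adjusted p = 5.3e-08) and 3.62 ± 0.25 in knockout (adjusted p = 2.42e-10). A list of other small heat shock proteins also held the heat shock factor Hsf1 and chaperones of the Hsp90, Hsp70 and Dnaj families. Of its 10 genes tested, 3 were higher in wild-type and 4 in knockout nerve and 0 lower in either, with medians of 0.10 and 0.59. Hspb8, a partner in clearing damaged protein, differed by 2.64 (log2, wild type).

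S100a6, the calcium-binding protein calcyclin (chr3:90612882-90624181, plus strand), stood at 11.4, 19.5, 19.5, 19.9 and 20.7 CPM in wild-type callosum and at 161, 172, 192 and 227 CPM in wild-type nerve. Knockout callosum ran from 9.74 through 13.5 to 15.4 CPM, and knockout nerve held 140, 177, 216, 218 and 408 CPM. A single wild-type callosum library stood well below its 4 neighbours, and a single knockout nerve library well above. S100a6 differed between tracts by 3.37 ± 0.25 in wild type (log2, SE, adjusted p = 1.15e-09) and by 4.14 ± 0.24 in knockout (adjusted p = 1.22e-11). Of 9 genes tested from a list of other S100 genes and Cacybp, which codes for a calcyclin-binding protein, 6 were higher in wild-type and 8 in knockout nerve and 0 lower, among them S100b, an astrocyte and oligodendrocyte calcium sensor, at 2.97 and S100a11 at 2.66 (log2, wild type).

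**Figure D2:**
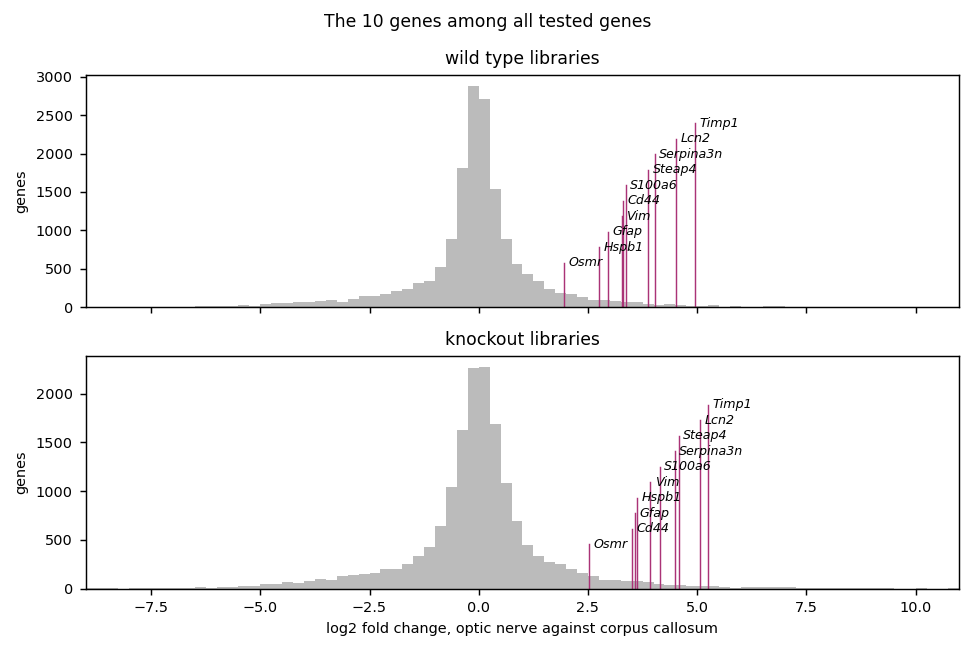
Log2 difference of optic nerve over corpus callosum in wild type and in knockout, with the distribution over all 16440 genes tested in grey and the 10 genes as coloured lines. All 10 lie to the right of most genes, from 1.95 for Osmr to 4.94 for Timp1 in wild type.

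A wider set of genes tied to reactive astrocytes also stood higher in nerve. Of 31 such genes tested, 23 were higher and 2 lower in wild-type nerve, with a median of 2.53. Within callosum only 28 of the list had enough counts to be tested. In knockout nerve 25 were higher and 2 lower, with a median of 3.20. Over all genes tested, 13% were called higher in wild type and 14.9% in knockout. Serping1, a complement inhibitor, differed by 5.64, Srgn, a granule proteoglycan, by 3.64 and Cp, the ferroxidase ceruloplasmin, by 3.57 (log2, wild type). In knockout C4b, a complement component, differed by 4.35. Of the 13 markers of resting astrocytes, 5 were higher and 1 lower in each genotype, with a median of 0.19 in wild type and 0.38 in knockout. S100b differed by 2.97, Gjb6, a connexin, by 2.42 and Atp1b2, a sodium pump subunit, by 1.78 (log2, wild type). Fitted values lay above 0 for 9 and below 0 for 4 of the 13 in each genotype. Slc1a2 averaged 1570 CPM in wild-type callosum and 301 CPM in wild-type nerve, and 1880 and 271 CPM in knockout. Sox9 is in both lists, and the difference between them was not tested. Clcf1 and Stat3 of the wider reactive list are also in the IL-6 family list, and S100a10 is also in the S100 list. S100b is in both the S100 list and the resting astrocyte list, so the list counts are not separate results.

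Markers of several other cell types differed between the tracts as well. The 10 fibroblast and meningeal markers were all called higher in nerve in both genotypes, with medians of 6.09 and 6.47, and their summed level was 38.1 to 98.5 CPM in callosum and 3170 to 6060 CPM in nerve. Of 10 microglia and macrophage markers, 7 were higher in wild-type and 9 in knockout nerve, and of 8 mural cell markers 4 were higher in each. Endothelial markers were higher in 2 of 8 in wild-type and 3 of 8 in knockout nerve. Ependymal markers were lower in 7 of 8 in each genotype, and 0 of 8 oligodendrocyte markers were called in either. The 10 neuron markers summed to 1060 to 4260 CPM in callosum and 229 to 445 CPM in nerve. The part of these cells in the levels of Vim, Cd44, Timp1, S100a6 and the other members was not tested.

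Per kilobase of transcript, the order of levels began alike in all 4 groups. Gfap led with 2620 ± 365 CPM per kilobase in wild-type nerve (SD, n = 4) and 338 ± 66 in wild-type callosum (SD, n = 5). Vim followed with 758 ± 141 and 78.6 ± 18.3, and S100a6 with 257 ± 39.5 and 24.9 ± 5.24. Steap4 came last in nerve, at 0.949 ± 0.209 CPM per kilobase in wild type; in callosum Steap4, Lcn2 and Timp1 had too few counts to be ordered. Hspb1 and Serpina3n, next in level, exchanged order between tracts. In wild-type nerve Serpina3n stood at 132 ± 30.2 and Hspb1 at 102 ± 9.59. In knockout nerve, at 128 ± 49.5 and 120 ± 37.3, they differed by less than their spread. Timp1, Lcn2, Cd44 and Osmr lay between 4.85 and 6.67 CPM per kilobase on average in wild-type nerve. Their SDs ran from 0.727 for Cd44 to 4.75 for Lcn2, and their order was not tested.

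The genotype comparison asks whether these genes differed with the Zdhhc9 genotype in either tract. In corpus callosum 7 of the 10 had enough counts to be tested, and none was called, where 0.0387% of all genes tested were called in either direction. Fitted values were all below 0, with a median log2 fold change of -0.48 against -0.01 over all genes tested. A log2 fold change below 0 was found for 52.5% of genes tested. Lcn2, Steap4 and Timp1 were too low to test, at 16, 17 and 30 counts in all over the 6 knockout libraries and 27, 22 and 20 over the 5 wild-type libraries.

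Gfap had the smallest p of the 7, with a knockout level of 67% of wild type (log2 fold change -0.58, 95% interval -0.93 to -0.23, adjusted p = 0.257). Its unadjusted p was 0.00272, and those of S100a6 and Hspb1 were 0.0162 and 0.0293. Thus 3 of 7 had an unadjusted p under 0.05 with a lower level, against 6.89% of genes tested. Within the callosum groups these 3 genes varied together, with r from 0.87 to 0.90, so they are not 3 separate observations. S100a6 stood at 71.9% of wild type (log2 -0.48, interval -0.86 to -0.09, adjusted p = 0.381) and Hspb1 at 64.2% (log2 -0.64, interval -1.23 to -0.05, adjusted p = 0.40). The other values were -0.51 for Serpina3n, -0.37 for Vim, -0.31 for Osmr and -0.30 for Cd44, each with an interval that spans 0.

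The call for Gfap depended on the tool: DESeq2, which called 174 genes in all, called it alone of the members, at -0.56 and an adjusted p of 0.0357. With 2786 genes called in all, limma-voom with quality weights per library called Gfap, Vim, Hspb1 and S100a6, with adjusted p from 0.0137 to 0.0403. The wild-type callosum library WT_CCg_685232 was the lowest of its group for those 4 genes and the highest for Serpina3n. With it, the genotype ranges of all 7 genes overlapped, and 0.902% of genes tested did not overlap. Without it, the ranges of Gfap, Hspb1 and S100a6 did not overlap, as for 2.82% of genes tested in this direction, and the adjusted p of Gfap was 0.0564. That library was singled out after its values were seen.

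**Figure D3:**
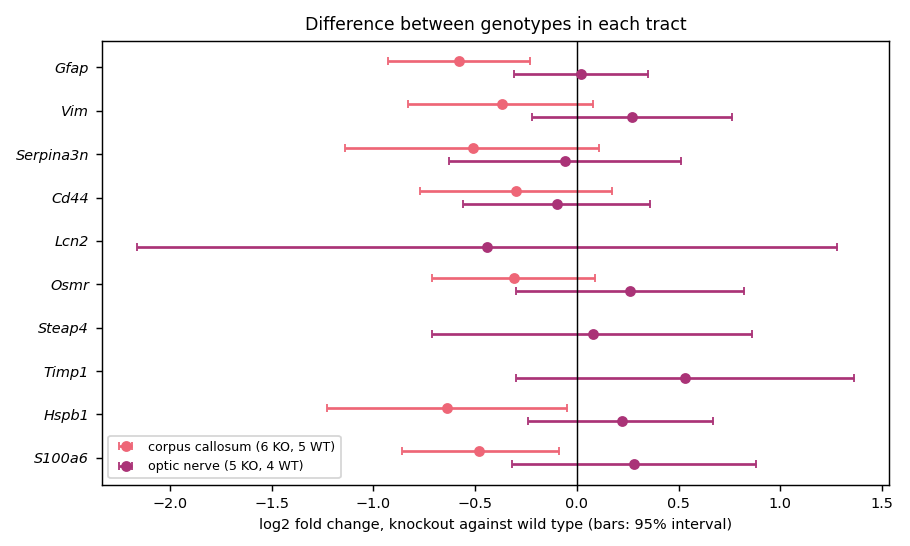
Log2 fold change of knockout over wild type for each gene in corpus callosum and optic nerve, with 95% intervals as bars. The callosum values lie between -0.64 and -0.30, and Lcn2, Steap4 and Timp1 have no callosum value. The nerve values lie on both sides of 0.

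The wider lists and the cell type markers held 0 called genes in the callosum comparison. Of 28 further reactive astrocyte genes tested 0 were called and 23 had a value below 0, with a median of -0.19. In the list of small heat shock proteins with Hsf1 and chaperones of the Hsp90, Hsp70 and Dnaj families, all 9 genes tested had a value below 0, with a median of -0.44, and 0 were called. The 13 resting astrocyte markers had a median of -0.14, with 12 below 0. Neuron markers lay above 0 in 10 of 10, with a median of 0.65 and a summed median of 3260 CPM in knockout against 1700 CPM in wild type. Markers of striatal projection neurons lay above 0 in 9 of 9, with a median of 0.83. Their sums ran from 565 through a median of 1020 to 1480 CPM in knockout and from 333 through 649 to 745 CPM in wild type. Oligodendrocyte markers lay below 0 in 8 of 8, with a median of -0.50. Microglia and macrophage markers lay below 0 in 8 of 10, with a median of -0.31, and their sums did not overlap, at 366 to 437 CPM in knockout and 460 to 544 CPM in wild type. Ependymal markers lay below 0 in 8 of 8, with a median of -0.28, and fibroblast markers in 10 of 10, with a median of -0.24. The ependymal sum was lowest in WT_CCg_685232 at 221 CPM, which is also the lowest library for Vim, and among knockout libraries highest in KO_CCg_29 at 601 CPM, which is also their highest for Vim. In contrast, KO_CCg_719856 and KO_CCg_693452 held Vim at 107.3 and 107.6 CPM but ependymal sums of 426 and 285 CPM. The part of these cells in the members' values was not tested. Adjusted for the mean level of the neuron markers, the median over the 7 members was -0.33 and Gfap stood at -0.38 (adjusted p = 0.406). WT_CCg_685232 held 3030 CPM of neuron markers, the most among wild-type callosum libraries, and the part of neuron RNA in the Gfap difference was not tested beyond this adjustment.

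Within the sample number formats the direction was the same. Among the libraries with 6- or 7-digit numbers Gfap differed by -0.55 (adjusted p = 0.508) and the members by a median of -0.44, and among the 2 knockout and 2 wild-type libraries with 2-digit numbers by -0.53 (adjusted p = 0.757) and a median of -0.49. The formats themselves differed: adjusted for genotype, Serpina3n was 1.72-fold higher in libraries with longer numbers (adjusted p = 0.0171) and Vim 0.705-fold as high (adjusted p = 0.0255). These were 2 of the 7 members tested, where 27.8% of genes tested were called. Both calls were lost without KO_CCg_29 or WT_CCg_28, each of which has a 2-digit number, and 1 of them without WT_CCg_30. In knockout callosum the 2 libraries with 2-digit numbers held the 2 lowest Serpina3n levels, 5.93 and 7.74 CPM, and the 2 highest Vim levels, 148 and 198 CPM.

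In optic nerve no member was called by edgeR, DESeq2 or limma-voom, where edgeR called 0.0129% of genes tested, and none had an unadjusted p under 0.05, against 5.48% of genes tested. Fitted values were above 0 for 7 and below 0 for 3 members, where 47.2% of genes tested lay below 0, with a median of 0.15 against 0.01 over all genes tested. Single libraries moved this median: it was 0.04 without KO_ON_48118A4, 0.05 without KO_ON_719856, with 5 members below 0, 0.10 without WT_ON_701297 and 0.29 without KO_ON_717651. Gfap differed by 0.02, with a 95% interval of -0.31 to 0.35 (edgeR adjusted p = 0.985), and is the member with the narrowest interval. Timp1 had the highest value, 0.53 with an interval of -0.30 to 1.36 (adjusted p = 0.845), and Lcn2 the lowest, -0.44 with an interval of -2.16 to 1.28 (adjusted p = 0.93). The ranges of the genotypes overlapped for all 10 genes, and 2.07% of genes tested did not overlap. Of 31 further reactive astrocyte genes tested in nerve 0 were called, and 23 had a value above 0, with a median of 0.19.

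The difference of the knockout effect between tracts was tested directly, callosum minus nerve, in the fit of all 20 libraries. None of the 10 members was called, and 0% of genes tested were called, with edgeR and also with DESeq2 and limma-voom. Fitted differences were below 0 for all 7 members with enough counts in callosum, as for 54% of genes tested, with a median of -0.61 against -0.03. Those of Lcn2, Steap4 and Timp1 rest on a few callosum counts and are not read here. Gfap differed by -0.61 (interval -1.07 to -0.15, adjusted p = 0.725), Hspb1 by -0.87 (interval -1.62 to -0.11, adjusted p = 0.725) and S100a6 by -0.77 (interval -1.45 to -0.08, adjusted p = 0.725). With Vim, 4 of these 7 had an unadjusted p under 0.05, against 6.83% of genes tested. Those 4 genes varied together within the callosum groups, with r from 0.76 to 0.90, so they are not 4 separate observations. This comparison uses the same libraries as the comparisons above, so its values restate them.

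Within a group, the members differed in how far they varied together. As a description over all 20 libraries, with each library set against its group mean on the log2 scale, 40 of 45 pairs of members correlated positively, with a median r of 0.33, from 0.87 for Vim with S100a6 to -0.24 for Cd44 with Steap4. Over the 9 nerve libraries 43 of 45 were positive, with a median of 0.55 and 0.97 for Serpina3n with S100a6. Over the 11 callosum libraries the median was 0.21, with 0.90 for Gfap with Vim and -0.57 for Vim with Serpina3n. The points share library depth and dissection.

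Single libraries ranked alike for several members. KO_ON_719856 was the highest knockout nerve library for 7 members (Gfap, Vim, Serpina3n, Cd44, Osmr, Timp1 and S100a6), and KO_ON_717651 the lowest for 7. In wild-type nerve WT_ON_700858 was the highest for 6 members. Among knockout callosum libraries KO_CCg_719856 was the lowest for Gfap, Vim, Hspb1 and S100a6 and the highest for Serpina3n, Lcn2, Osmr and Steap4. That is the opposite place to KO_ON_719856 for Gfap, Vim and S100a6, and the same place for Serpina3n and Osmr. The labels do not say that a number stands for 1 animal.

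**Figure D4:**
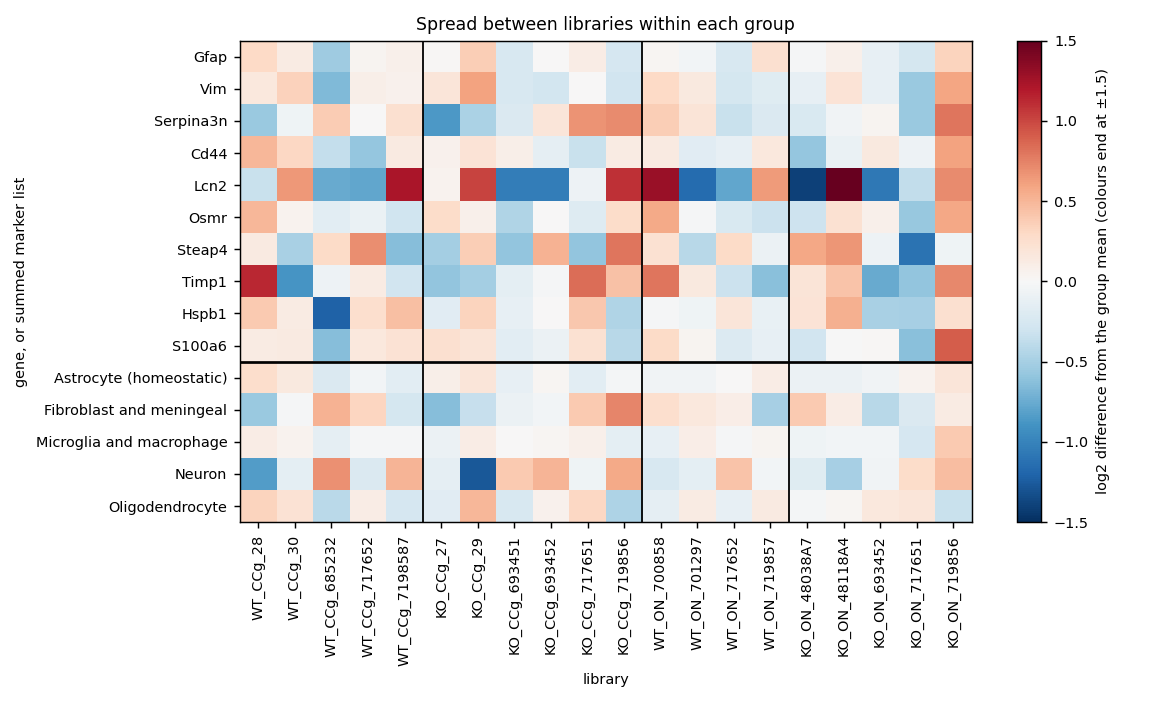
Log2 difference of each library from its group mean for the 10 genes, with the summed marker lists under the black line; the colour scale ends at 1.5 in each direction. KO_ON_719856 is above its group mean in most members, and WT_CCg_685232 below in Gfap, Vim, Hspb1 and S100a6.

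Measured the same way over 15079 genes and 20 libraries, the genes most like Gfap were Abhd15 (r = 0.904), Tppp3 (0.898), Bcar3 (0.898), Msn (0.894) and Acot1 (0.891). Msn, the cytoskeletal linker moesin, was itself higher in nerve, by 1.80 (log2, wild type, adjusted p = 3.15e-08). The genes most like Serpina3n were Cpxm2 (0.899), Prdm8 (0.877), Aqp11 (0.875), Blnk (0.868) and Ptpru (0.829). The 2 sets have no gene in common.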

How the data were processed

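Per the table's own name, the authors deposited an estimated count per gene and library from kallisto, and totals that differ between libraries show no scaling. The submitters' processing notes name mm10. The kallisto version and the annotation are not given in these sources. Libraries were prepared with a stranded mRNA kit, per the labels' protocols. Counts were rounded, filtered with filterByExpr (minimum count 10, minimum total 15), scaled with TMM and fitted with edgeR 4.0.16 (R 4.3.3). Fits were per tract for genotype, within callosum for the number formats, and over all 20 libraries for the other comparisons. All p-values were adjusted by Benjamini-Hochberg over all genes tested. Standard errors were derived from each log2 fold change and F value, and 95% intervals from them and the residual degrees of freedom. Levels are CPM on the TMM scale of all libraries, and per kilobase on the longest coding transcript of GENCODE vM21. The total count of 15401130 to 26095622 per library sets the precision: members under 10 counts in callosum have no usable level there. Correlations use log2 CPM with a prior count of 2.

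All 10 members were named, with up to 3 genes of smallest p per list and the 5 genes most like Gfap and Serpina3n. Members and lists were chosen with earlier results of these data known. Sample numbers shared by tracts were not taken as pairs. The scripts were tested on simulated data. Alternatives were DESeq2 1.42.0, limma 3.58.1 (voom), other scaling and filters, unrounded counts, covariates, subsets, a fit with a replicate block, and fits that each leave out a library.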

Additional observations from a re-analysis of the deposited data

Results flagged for a closer look

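S100a6 in the wild-type callosum library WT_CCg_685232 stood at 11.4 CPM, and the nearest of the other 4 libraries at 19.5 CPM. The gap to its neighbour, as a share of the group's range, was 0.869, above the 95% critical value of 0.710 for 5 libraries. It was 1 of 40 checks of a member in a group that could be run, and chance flags about 1 in 20.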

How the results depend on the processing

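The 10 members were called higher in nerve in both genotypes under every alternative run (18 in wild type and 20 in knockout), and the 7 tested in callosum kept a value below 0 in the genotype comparison in all 23 alternatives. In callosum the count of genes called, 6, was 174 with DESeq2, 2786 with limma-voom and quality weights, 41 in the joint fit, 10 with the number format as a covariate, 2 with only 6- or 7-digit numbers, 0 with only 2-digit numbers and 2 to 41 leaving out each library in turn; the count of members called, 0, was 1 with DESeq2 and 4 with limma-voom. The highest, 41, was without WT_CCg_685232. In nerve the count of genes called, 2, was 35 with DESeq2 and 1 with only 6-digit numbers. With only 6-digit numbers the nerve values of Serpina3n (0.07), Cd44 (0.11), Steap4 (-0.39) and Hspb1 (-0.04) changed sign, as did Lcn2 with limma-voom (0.14). Leaving out each nerve library gave -0.30 to 0.08 for Serpina3n, -0.27 to 0.03 for Cd44, -0.10 to 0.26 for Steap4, -0.06 to 0.11 for Gfap, -0.01 to 0.40 for S100a6 and -1.40 to 0.12 for Lcn2. The difference of the effect between tracts ran from -1.11 to 0.39 for Lcn2 and from -0.65 to 0.15 for Timp1 leaving out each library, and stood at 0.01 for Cd44 and 0.21 for Timp1 without 2-digit callosum libraries; its count of genes called was 0 to 1. Between number formats 1952 to 4543 genes and 0 to 3 members were called leaving out each library. The cause of these changes was not tested. With the replicate block the difference of the effect gave 4 called genes and 0.51 for Lcn2, and the wild-type tract comparison 2527 genes in place of 4309 and still all 10 members; it rests on 1 shared number in wild type and 3 in knockout, whose libraries' deviations correlated at -0.153 to 0.133, so the numbers were not shown to pair. Depth limits Lcn2, Steap4 and Timp1 in callosum.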
